A study of Mus musculus with 6 samples.

Results

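The baseline transcriptome of AE9a leukemia cells was described from 3 of the 6 bulk RNA-seq libraries of the study, those of mice injected with oil. Each library came from 1 mouse, and the members were all libraries labelled oil. AE9a, or AML1-ETO9a, is a shortened form of the fusion of a DNA-binding RUNX1 part with the co-repressor ETO, and it gives rise to acute myeloid leukemia in mice. Fetal liver cells of Usp18+/f UBCER-Cre mice were infected with a retrovirus carrying AE9a and GFP, and the leukemia cells that grew in the spleens of recipients were passed on to sub-lethally irradiated C57BL/6 mice. Per the labels, these mice received oil, the solvent of tamoxifen, once they were sick, and the methods give 3 injections. The GFP+ Lin- c-Kit+ splenocytes were sorted 3 days after the first injection. The cells therefore held 1 floxed and 1 normal Usp18 allele, and a Cre recombinase that the ubiquitin C promoter drives in all cells and that tamoxifen switches on. How many separate transductions the 3 mice stand for is not given in the sources used here, so the spread among them may be that of 1 leukemia grown in 3 recipients. Reads of the AE9a transgene itself could fall on Runx1 or Runx1t1, and the endogenous and retroviral share of these genes cannot be told apart.

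In acute myeloid leukemia with AML1-ETO, the fusion keeps blood progenitors from maturing and lets them divide. Blood lineages are set by transcription factors: GATA1 and KLF1 act in red cells and their precursors, GATA2 and MITF in mast cells, PU.1 (Spi1) and the C/EBP family in granulocytes and macrophages. Mast cells and their precursors carry the receptor KIT and the high-affinity IgE receptor, and they store chymases, tryptases, carboxypeptidase and histamine in granules held together by the proteoglycan serglycin.

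Values are normalised read counts, that is, the reads of a gene after scaling each library by its size factor. They were given in the order of mice oil 1, oil 2 and oil 3, and means are ± SD (n = 3 mice). The libraries held 23785143, 22367916 and 23582369 reads, and 1 read was worth between 0.898 and 0.965. A value of 0 allowed up to 3 reads, or 2.69, 2.89 and 2.79 in the 3 libraries, and such limits cover counting error only. Levels of different genes were compared only as TPM, in which reads are divided by the length of a gene's exons and scaled to the same total in each library. A gene was called detected at a value of 10 or more in all 3 libraries. Of 53618 named rows, 11593 were detected (21.6%), and of 21674 protein-coding genes 10423 were (48.1%). TPM ranks ran over the 11464 detected genes with a known length, whose median was 23.3 TPM. Among the genes just inside the limit, 83 had their lowest value between 10 and 11, and 115 genes just outside had theirs between 9 and 10.

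The sorting marker Kit and 4 further genes chosen to mark these cells were all detected. Kit, the receptor for stem cell factor and the sorting marker, stood at 8990.5, 8043 and 7512 in the 3 mice (129 ± 14.3 TPM, rank 1252). Cma1, a mast cell chymase, stood at 12419.9, 10304 and 10423, which made it the marker of highest level (1426 ± 178 TPM, rank 85). Cpa3, the carboxypeptidase of mast cell granules, stood at 3823, 3992 and 4174 (369.9 ± 9.14 TPM, rank 329). The integrin gene Itga4, whose product holds progenitors in the marrow, was nearly level at 7051, 7079 and 6992 (rank 2383). Cd34, the sialomucin of stem and progenitor cells, was the lowest of the 5 markers and the one that differed most among mice, at 843, 288 and 349 (rank 8053). Its value in oil 1 was the highest, and those of oil 2 and oil 3 were close to each other.

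Several genes of antigens that mark mature lineages were read at 0 in every mouse, namely Cd3d, Cd3e, Cd3g, Cd4, Cd8a, Cd8b1, Itgam and Ly6g. For Itgam, which encodes CD11b, 68.7% of the exon bases also belong to another gene on the same strand, so its reads could have been set aside in counting. Usp18, the floxed gene, encodes the protease that takes ISG15 off proteins and holds back the type I interferon receptor. It stood at 217, 214 and 176 (rank 7901).

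The most abundant mRNAs were those of translation and of the mitochondrial genome. Genes of ribosomal proteins took 10.2% ± 0.489 of the reads and mitochondrially encoded genes 1.08% ± 0.103. Eef1a1, the factor that brings aminoacyl-tRNA to the ribosome, had the most reads of any gene, at 270909, 246774 and 264272. By TPM, Rplp1 led the protein-coding genes with 16666 ± 629.7, followed by Eef1a1 with 14692 ± 822, the cytochrome oxidase gene mt-Co1 with 9434 ± 1060.3, and the ribosomal gene Rplp0 with 8186 ± 582. The remaining protein-coding genes of the first 20 ranks were Ptma, Rpl36, Rpl8, Rps15, Rps3a1, mt-Nd1, Eef2, Rps2, Car1, Hba-a1, Rpl4, mt-Cytb and Actb. Car1 and Hba-a1 were the members of this set that belong to red cells, for carbonic anhydrase and alpha globin. The 100 genes with the largest mean took 18.4% ± 0.323 of the reads.

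The 5 rows of highest TPM that are not protein-coding included very short ones. Gm23935, listed as a microRNA of 57 bases, had the largest TPM of all, and its values were 19409, 29803 and 28079. CT010467.1, an rRNA row, stood at 33768, 47125 and 43727, so that both were lowest in oil 1. The others of the 5 were Gm10736, Gm10076 and the mitochondrial tRNA mt-Tp. Short lengths raise TPM, and the ranks of such rows say little about the amount of RNA. The length used also mattered for protein-coding genes: with the longest transcript in place of all exons, 10 of the 20 first genes and 84 of the 100 first genes were shared.

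With translation factors, ribosomal and mitochondrially encoded genes set aside, the order was as follows. Ptma, for the acidic nuclear protein prothymosin alpha, led with 7239 ± 417 TPM. Car1 followed with 4329 ± 176, and it was even among mice at 38856, 36633 and 39883. Hba-a1 came to 4303 ± 1206 TPM and was less even, at 21883, 32731 and 19942. Actb, for beta actin, Gpx1, a glutathione peroxidase, Hbb-bs, an adult beta globin, and the chaperone gene Hsp90ab1 came next, at 4051 ± 97.6, 3974 ± 109.8, 3371 ± 627 and 3067 ± 101 TPM. Srgn, for serglycin, was 11th in this order with values of 27639.7, 26061 and 27779. Cma1 was further down in the same order, at 1426 ± 178 TPM.

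Sequences before the start sites are shown for the 4 genes of highest TPM in the list of mast cell granule genes (proteases, Hdc and Slc18a2), since they were among the most abundant mRNAs of these cells. Each run is the 250 bases before the RefSeq start (GRCm38.p6), read 5′ to 3′ on the gene's own strand, with capitals marking a match to TGTGGT, the core that RUNX factors bind, or to AGATAA, which GATA factors bind, on either strand. Cma1 lies on the minus strand and its run spans chr14:55944676-55944925. Mcpt1 lies on the plus strand and its run spans chr14:56017714-56017963. The run of Hdc, on the minus strand, spans chr2:126618679-126618928, and that of Cpa3, also on the minus strand, spans chr3:20242182-20242431.
Cma1: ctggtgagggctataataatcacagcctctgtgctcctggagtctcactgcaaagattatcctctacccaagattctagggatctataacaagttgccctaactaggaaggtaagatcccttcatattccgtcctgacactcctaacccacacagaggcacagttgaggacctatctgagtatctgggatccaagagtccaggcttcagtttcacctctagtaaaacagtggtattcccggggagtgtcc
Mcpt1: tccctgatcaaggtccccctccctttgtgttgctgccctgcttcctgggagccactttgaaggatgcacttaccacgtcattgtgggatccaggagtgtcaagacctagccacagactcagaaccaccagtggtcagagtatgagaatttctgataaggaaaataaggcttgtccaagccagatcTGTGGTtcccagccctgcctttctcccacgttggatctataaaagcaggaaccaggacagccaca
Hdc: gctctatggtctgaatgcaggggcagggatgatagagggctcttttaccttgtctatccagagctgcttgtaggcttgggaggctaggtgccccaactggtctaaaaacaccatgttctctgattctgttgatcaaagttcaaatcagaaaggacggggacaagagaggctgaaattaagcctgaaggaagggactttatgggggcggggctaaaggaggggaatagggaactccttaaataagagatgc
Cpa3: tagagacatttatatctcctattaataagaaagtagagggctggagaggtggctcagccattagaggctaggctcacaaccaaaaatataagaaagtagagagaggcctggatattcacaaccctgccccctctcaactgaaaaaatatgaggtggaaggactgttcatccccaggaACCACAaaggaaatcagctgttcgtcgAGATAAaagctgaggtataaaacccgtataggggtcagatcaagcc

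Mcpt1 held 1 RUNX match, 65 bases before the start. Cpa3 held 1 RUNX match, in its reverse complement ACCACA, 73 bases before the start, and 1 GATA match 46 bases before it, which did not overlap. Cma1 and Hdc held neither set of letters in this window. Over the first promoter entry of all 27025 genes in the RefSeq table, 14.2% held the RUNX letters and 10.3% the GATA letters. Among the 8665 detected genes with an entry, the shares were 10.8% and 6.28%. The letters of a PU.1 site, GAGGAAGT, stood in 2.44% of all and 2.39% of the detected genes' windows, and in none of these 4. Only these exact letters were searched, and other forms of the sites were not. A match is a description of letters, and binding was not measured in these libraries.

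Of the 66 granule genes examined, 34 were detected (51.5%, against 48.1% of all protein-coding genes), and the counts by list differed. The lists here and below were chosen with earlier results of these data known, so their shares are a description only. Of the mast cell granule genes 10 of 12 were detected, with a median of 182.6 TPM among those detected. The shared matrix and lysosome genes gave 18 of 21 and a median of 187.9 TPM. Of the primary granule genes of neutrophils 3 of 8 were detected, of their later granule genes 0 of 10, of basophil and eosinophil genes 1 of 8, and of cytolytic genes 2 of 7.

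**Figure D1:**
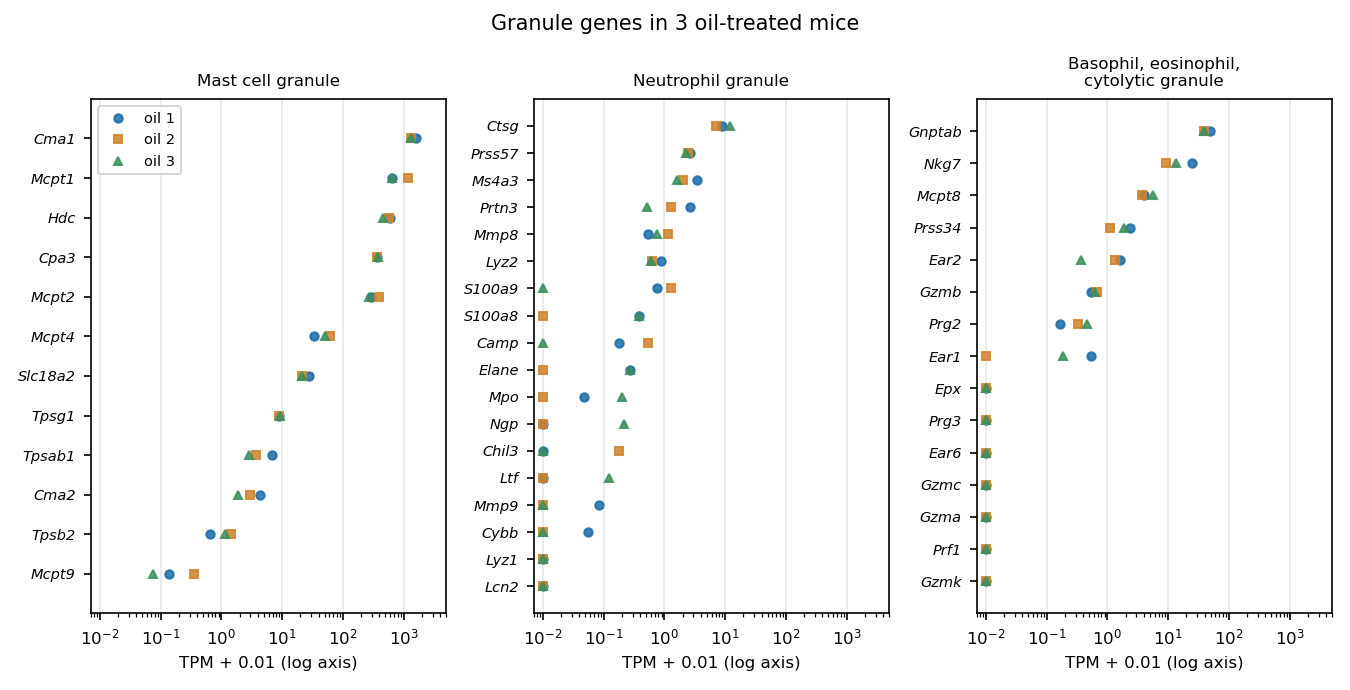
Granule genes by mouse. Each row is a gene, the horizontal axis is TPM + 0.01 on a log scale, and the 3 symbols are oil 1, oil 2 and oil 3. Mast cell genes reach up to 1426 TPM (Cma1), while the highest neutrophil gene, Ctsg, lies at 9.31 TPM and symbols on the left edge are at 0.

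Among the mast cell proteases, the chymase genes Cma1, Mcpt1, Mcpt2 and Mcpt4 stood above the tryptase genes, and Cma2 and Mcpt9 did not. Mcpt1, a chymase of mucosal mast cells, was at 4531, 8496 and 4792 (823 ± 308 TPM, rank 146), highest in oil 2. Mcpt2, its neighbour in the same cluster on chromosome 14, was also highest in oil 2, at 2135, 2961 and 2077 (rank 413). Mcpt4, a chymase of connective tissue mast cells, followed at 263, 480.5 and 405 (rank 3416) with its lowest value in oil 1. Cma2 was low at 33.2, 23.2 and 14.9. Tpsab1 and Tpsb2, which encode the mast cell tryptases, stood at 98.8, 55.96 and 42.7 and at 7.19, 16.4 and 13.00, so Tpsb2 was not detected by the limit of 10. Tpsg1, a membrane-bound tryptase, was even at 85.3, 87.8 and 92.9, and Mcpt9 was at or near the floor in all 3 mice. Exact words of 100 bases shared with other genes were found for 20.2% of Cma2 words and for none of those of Cma1, Mcpt1, Mcpt2 and Cpa3.

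Genes for the making, storing and release of mediators ranged from high ranks to the middle of the detected genes. Hdc makes histamine from histidine, and its values of 26390.3, 25732 and 21496 gave 540.4 ± 67.7 TPM (rank 216). Slc18a2, which pumps amines into granules, was at 1011, 799 and 797 (rank 5715). Ndst2, the sulfotransferase needed to make granule heparin, stood at 18222, 17724 and 16371 (539 ± 39.6 TPM, rank 218). Vamp8, a membrane fusion protein of secretory granules, was at 5581, 5274 and 5505 (rank 389), and Rab27b at 2726, 2382 and 2092. Among proteases and their inhibitors, Ctsz was at 291 ± 15.1 TPM, Lamp1, for a lysosome membrane protein, at 293 ± 11.2, and Cst7, for cystatin F, at 236 ± 1.51. Most of these were even among the mice, but Serpinb1a, an inhibitor of neutrophil proteases, was at 3244, 1142 and 1428 with oil 1 well above the others.

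Granule genes of neutrophils were close to absent. Mpo, for myeloperoxidase, was at 0.898, 0 and 4.64, and Elane, for neutrophil elastase, at 1.80, 0 and 1.86. Prtn3, for proteinase 3, was at 31.4, 15.4 and 6.50, lowest in oil 3. Ctsg, the cathepsin G gene that mast cells share with neutrophils, was at 64.7, 51.1 and 90.1, with 9.31 ± 2.54 TPM the highest of the group (rank 8107). Prss57 and Ms4a3 were at 52.1, 50.2 and 46.4 and at 44.9, 27.01 and 22.3. Of the later granule genes, Ltf, Camp, Ngp, Lcn2, Mmp9, Chil3, S100a8, S100a9 and Cybb stood at 5 reads or fewer in every mouse, and Mmp8 was at 8.98, 19.3 and 13.00, with 0.796 ± 0.298 TPM the highest of the 10. Exons of Elane and Ctsg overlap no other gene, and 15.0% of the exon bases of Mpo overlap a gene on the opposite strand.

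The basophil protease gene Mcpt8 was at 27.8, 26.05 and 40.9, and Prss34, also of basophils, at 19.8, 9.65 and 16.7. Epx, Prg3 and Ear6, of eosinophils, were at 0 in all 3 mice. Perforin (Prf1) and Gzma, Gzmc and Gzmk were at 0, and Gzmb was at 5.39, 6.75 and 6.50. Nkg7, a granule membrane protein of cytolytic cells, was detected at 159, 58.9 and 89.1, highest in oil 1. Gnptab, which was counted with the cytolytic list but tags lysosomal enzymes in most cells, was at 1988, 1621 and 1666.

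Of 84 lineage regulators and RUNX or ETO partners, 56 were detected (66.7%, against 48.1% of all protein-coding genes), with a median of 59.9 TPM among those detected. Because these lists were chosen with earlier results known, the share is a description and no test. All 10 erythroid and megakaryocyte regulators, all 7 mast cell and basophil regulators and all 17 RUNX and ETO partners were detected. Of the stem and progenitor regulators 12 of 18 were, of the myeloid regulators 7 of 15, and of the lymphoid regulators 3 of 17. Of the 56 detected, 1 (1.79%), Nr4a1, differed by 2-fold or more between its highest and lowest mouse. That share was near the 2.64% of all detected genes.

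**Figure D2:**
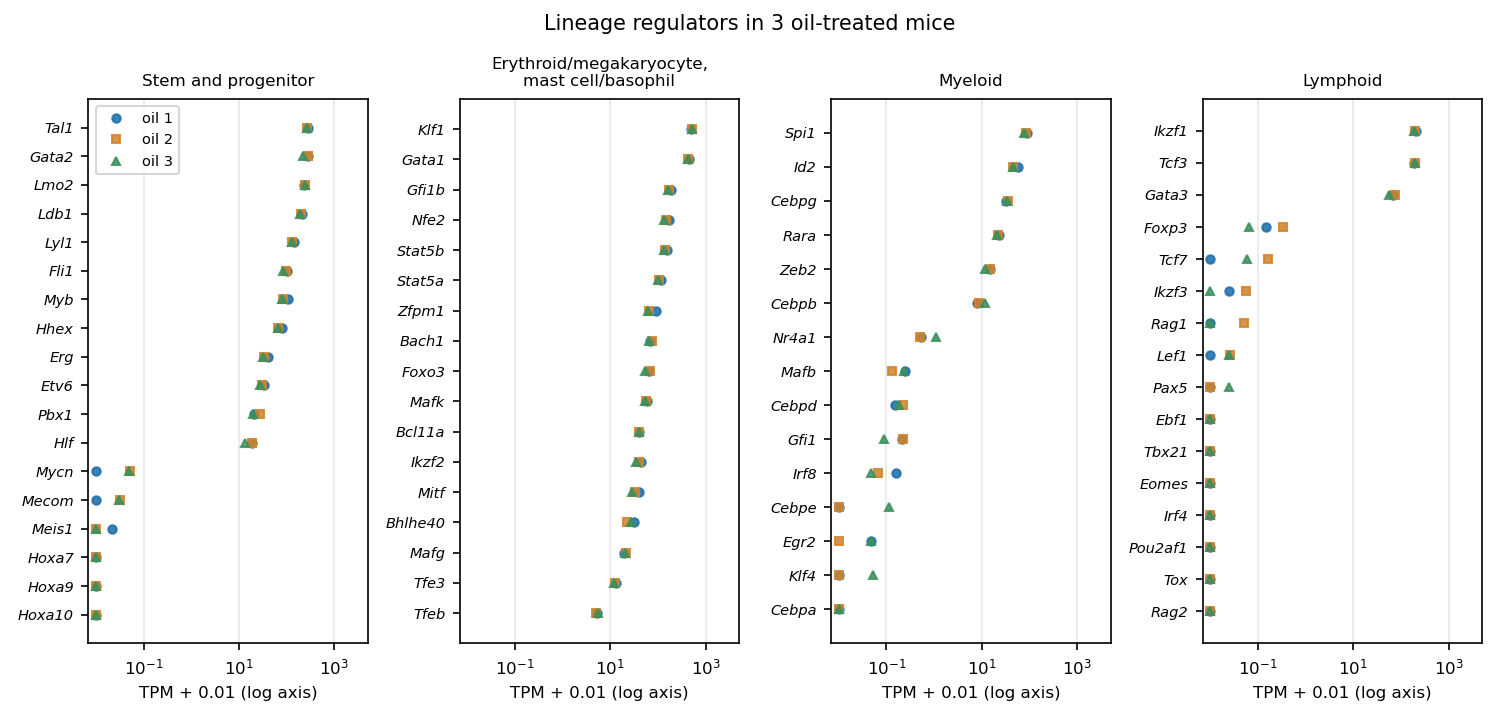
Lineage regulators by mouse. Each row is a gene, the horizontal axis is TPM + 0.01 on a log scale, and the 3 symbols are oil 1, oil 2 and oil 3. Erythroid and mast cell regulators run from 5.26 TPM (Tfeb) to 514 TPM (Klf1), while Cebpa, Hoxa7, Hoxa9 and Hoxa10 sit at 0 on the left edge.

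By the length of all exons, a red cell regulator led. Klf1, the activator of adult beta globin and other red cell genes, had the highest TPM of all regulators, with 514 ± 19.95 (rank 231) from values of 5248, 5749 and 5794. Gata1, the GATA factor of red cells, megakaryocytes, mast cells and eosinophils, was at 7512, 7269 and 7626 (430.4 ± 10.9 TPM, rank 277). The 3 mice were close to each other in both. With the longest transcript as length, Gata1 stood above Klf1, at ranks 312 and 345 of 10420 protein-coding genes. Gfi1b, a repressor needed for red cells and platelets, followed with 172 ± 12.1 TPM, Nfe2, a globin locus factor, with 149 ± 20.3, and Zfpm1, the GATA1 cofactor FOG1, with 71.95 ± 14.7. Bcl11a, the repressor of embryonic and fetal globin genes, was at 3666, 3799 and 3811.

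Genes of the complex that TAL1 forms with GATA2, LMO2 and LDB1 were all detected. Tal1 was at 8461, 8227 and 8584 (270.3 ± 6.20 TPM), and Gata2, a factor of stem cells and mast cells, at 10484, 10840.1 and 8872 (262 ± 31.1 TPM). Their partners Lmo2 and Ldb1 reached 239 ± 9.33 and 198 ± 10.4 TPM, and Lyl1, a close relative of Tal1, 136 ± 8.56. Fli1 and Erg, 2 ETS factors of stem cells, were at 92.8 ± 8.63 and 35.2 ± 4.30 TPM, Myb at 91.5 ± 13.7 and Hhex at 70.8 ± 7.28. Hlf, a factor of stem cells, was at 881, 879.9 and 664. In contrast Meis1, Mecom and Mycn stood at 2 reads or fewer in every mouse, and Hoxa7, Hoxa9 and Hoxa10 at 0.

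Among mast cell and basophil regulators, Stat5b and Stat5a, which act below KIT and the IL-3 receptor, were highest, at 140.4 ± 9.72 and 107 ± 6.85 TPM. Mitf, which drives Kit and mast cell protease genes, was at 1741, 1477 and 1294 (34.2 ± 5.75 TPM), with oil 1 the highest and oil 3 the lowest. Ikzf2 and Bhlhe40 were at 39.8 ± 5.11 and 26.9 ± 4.85 TPM, and Tfe3 and Tfeb, relatives of Mitf, at 12.4 ± 0.582 and 5.26 ± 0.205.

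Myeloid regulators were split. Spi1, for PU.1, was detected at 1679.7, 1637 and 1523 (84.2 ± 5.79 TPM, rank 1978), and Id2, Cebpg, Rara and Zeb2 were detected as well. Cebpa, the factor that granulocyte precursors need, was at 0 in all 3 mice, and Cebpe was at 0, 0 and 0.929. Gfi1, a repressor that neutrophils need, was at 4.49, 4.82 and 1.86 and Irf8, the factor of monocytes and dendritic cells, at 7.19, 2.89 and 1.86. Cebpb was at 84.4, 91.7 and 127 (9.42 ± 1.95 TPM), and Cebpd at 3.59, 5.79 and 4.64 (0.175 ± 0.0402 TPM). At most 3.17% of the exon bases of Cebpa, Gfi1 and Irf8 overlap another gene.

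Of lymphoid regulators only Ikzf1, Tcf3 and Gata3 were detected, all of which act beyond lymphoid cells. Ikzf1, for Ikaros, was at 8314, 8029 and 7869 (196 ± 9.22 TPM). Tcf3, the E protein E2A, was at 5206, 5737 and 5821 (194 ± 8.46 TPM), and Gata3 at 1888, 2094 and 1623 (66.05 ± 9.05 TPM). Ebf1, Eomes, Tbx21, Irf4, Pou2af1, Tox and Rag2 were at 0 in every mouse, and Foxp3, at 4.49, 10.6 and 1.86, had the highest TPM of the rest with 0.174 ± 0.138.

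The genes of which AE9a is made, and those of its partners, were all read. Runx1 stood at 12791, 12361 and 11592 (143 ± 9.80 TPM, rank 1106), and Runx1t1, the ETO gene, at 1902, 2052 and 1987 (34.95 ± 1.13 TPM). Cbfb, which binds the same RUNX1 part that the fusion keeps, was at 5381, 5485 and 5581 (221 ± 0.345 TPM). Cbfa2t3, for the ETO relative ETO2, was at 3614, 4834 and 3522, highest in oil 2, and Cbfa2t2 at 804, 853 and 819.9. Runx3 and Runx2 were lower than Runx1, at 39.8 ± 1.38 and 4.41 ± 0.504 TPM. Of the co-repressors, Hdac1 was at 203 ± 8.27 TPM, Hdac3 at 58.8 ± 1.81 and Ncor1 at 68.8 ± 3.13, and Prmt1, an arginine methyltransferase that binds the fusion, at 168 ± 14.4.

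Of 114 genes of surface receptors and adhesion molecules, 68 were detected (59.6%, against 48.1% of all protein-coding genes), with a median of 28.6 TPM among those detected. This share too is a description of lists chosen with earlier results known. The counts were 22 of 33 cytokine receptors, 6 of 10 Fc and mast cell receptors, 9 of 20 chemokine and other receptors, 18 of 27 adhesion molecules and 13 of 24 other surface proteins. Kit and Cd34 are each in 1 of these groups. Of the 68 detected, 7 differed by 2-fold or more among the mice (2.64% of all detected genes did), that is Cd34, Il3ra, Il10ra, Csf1r, Fcgr3, Esam and Cd63.

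**Figure D3:**
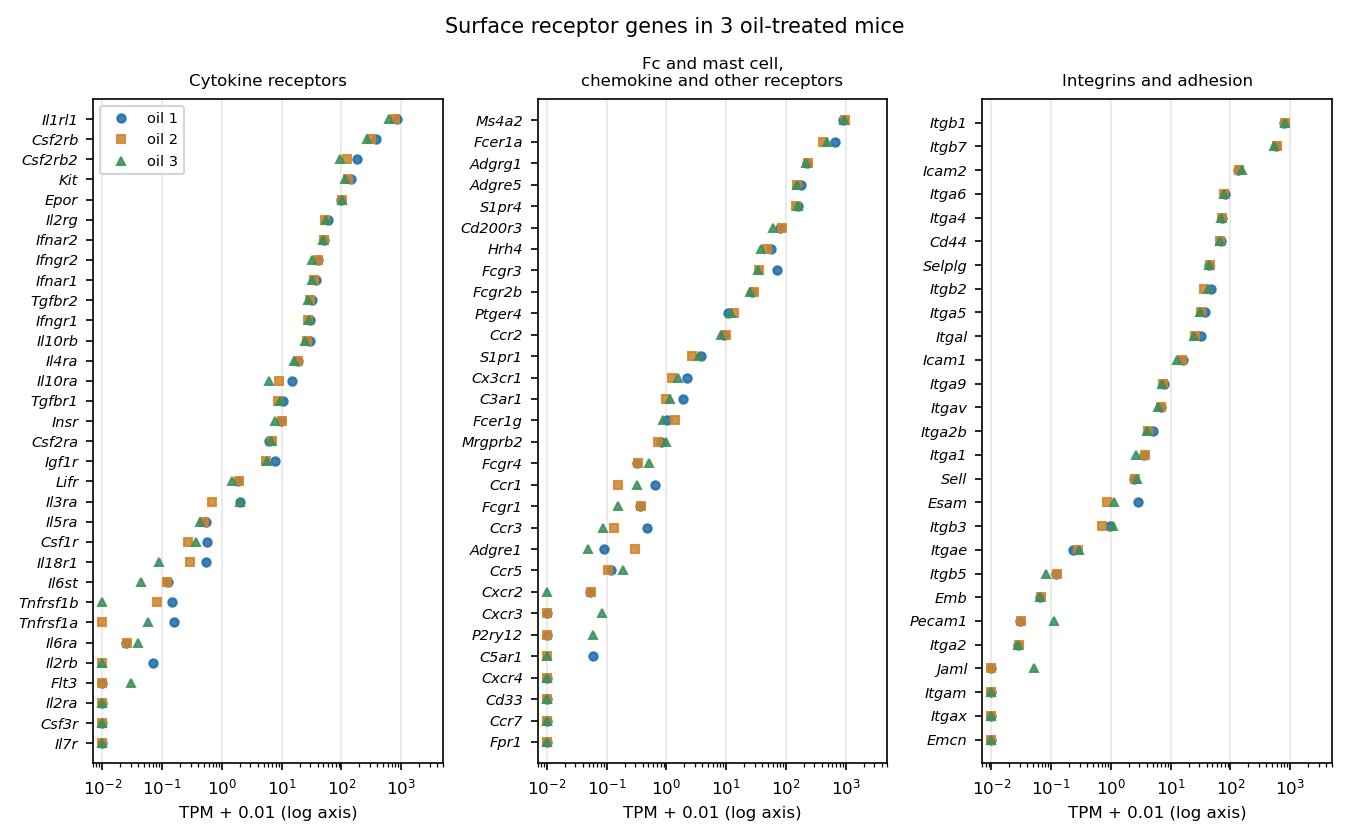
Surface receptor genes by mouse. Each row is a gene, the horizontal axis is TPM + 0.01 on a log scale, and the 3 symbols are oil 1, oil 2 and oil 3. The receptors of highest level, Ms4a2 (936 TPM), Itgb1 (805 TPM) and Il1rl1 (758 TPM), lie far from Flt3, Csf3r and Cxcr4 on the left.

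Receptors for mast cell cytokines were the highest of their group. Il1rl1, the receptor for IL-33, was at 40978, 38788 and 31601 (758 ± 113 TPM, rank 159). Csf2rb, the beta chain shared by the receptors for IL-3, IL-5 and GM-CSF, was at 19388, 16338 and 13981 (321 ± 58.5 TPM), and Csf2rb2, the beta chain particular to IL-3, at 5954, 4276 and 3271. All 3 were highest in oil 1 and lowest in oil 3. The alpha chains that bind these cytokines were far lower: Csf2ra stood at 6.68 ± 0.416 TPM, Il3ra at 1.58 ± 0.777 and Il5ra at 0.487 ± 0.0553. Il3ra was lowest in oil 2, with values of 42.2, 14.5 and 43.6. Epor, the erythropoietin receptor, was at 1390.5, 1455 and 1493 (102 ± 1.79 TPM), and Il2rg at 56.2 ± 3.21 TPM.

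Several other growth factor and cytokine receptors were read at or near 0. Flt3, a receptor of early lymphoid and myeloid progenitors, was at 0, 0 and 0.929. Csf3r, for the G-CSF receptor, Il7r and Il2ra were at 0 in all 3 mice. Csf1r, for the macrophage growth factor receptor, was barely detected at 22.5, 10.6 and 14.9. The chains of the type I interferon receptor, Ifnar1 and Ifnar2, were detected at 1574, 1494 and 1386 and at 1209.9, 1233 and 1172. Those of the interferon gamma receptor, Ifngr1 and Ifngr2, were at 28.96 ± 1.01 and 38.3 ± 5.21 TPM. Both tumor necrosis factor receptors, Tnfrsf1a and Tnfrsf1b, were at 4 reads or fewer in every mouse.

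Of the high-affinity IgE receptor, the alpha and beta chains were read at high levels and the gamma chain near 0. Ms4a2, the beta chain, was at 17754, 19301 and 19161 (936 ± 30.8 TPM, rank 130). Fcer1a, the alpha chain, was at 4713, 2986 and 3528 (528 ± 132 TPM, rank 224), highest in oil 1. Fcer1g, the signalling gamma chain that other Fc receptors use too, was at 6.29, 8.68 and 5.57, although none of its exon bases overlap another gene, and why its row is near 0 was not tested. Fcgr2b, an inhibitory IgG receptor, and Fcgr3 were at 1106, 1209 and 1052 and at 863, 433 and 427, and Fcgr1 and Fcgr4 were not detected. Cd200r3, an activating receptor of mast cells and basophils, was at 3324, 3681 and 2668, and Mrgprb2, a receptor of connective tissue mast cells, at 11.7, 10.6 and 14.9. Cd33 was at 0 in all 3 mice.

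Among chemokine and other G protein coupled receptors, Adgrg1, also known as GPR56, was the highest at 8602, 9081 and 8413 (225 ± 10.98 TPM). Adgre5, for CD97, followed with 161 ± 12.7 TPM, S1pr4 with 156 ± 6.21 and the histamine receptor Hrh4 with 47.6 ± 9.67. Cxcr4, which holds many blood progenitors in the marrow, was at 0 in all 3 mice, as were Ccr7 and Fpr1. Ccr2 was at 429, 486 and 404 and Cx3cr1 at 69.2, 39.6 and 50.1.

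Beta integrin chains were the highest adhesion genes. Itgb1, which pairs with the product of Itga4, was at 22466, 23606 and 24105 (805 ± 14.7 TPM), and Itgb7, its other partner, at 11127, 11763 and 10954 (572 ± 26.3 TPM). Both beta chains were far above Itga4 with its 70.8 ± 1.70 TPM and Itga6 with 78.7 ± 2.25. Icam2, a ligand of leukocyte integrins, was at 142 ± 12.8 TPM, Cd44 at 67.7 ± 1.25 and Selplg, the selectin ligand, at 44.7 ± 1.28. Itgax and Emcn were at 0, and Itga2b, the platelet integrin, was low at 191, 164 and 158.

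Other surface genes included leukocyte genes of high level and others read near 0. Ly6e was at 629 ± 2.47 TPM, Spn, for CD43, at 393 ± 6.02, Cd47, the signal against phagocytosis, at 389 ± 24.1, Cd24a at 230.3 ± 14.1 and Tfrc, the transferrin receptor, at 128 ± 5.28. Ptprc, the gene of CD45 that nearly all leukocytes carry, was at 0.898, 3.86 and 0.929. Its 18313 exon bases overlap no other gene. Why this row is near 0 in sorted blood cells was not tested, and a row near 0 in this table may not mean that the gene was silent, here or for Fcer1g and the other genes read near 0. Cd53, a tetraspanin of leukocytes, was at 11.7, 3.86 and 16.7 and Cd9 at 0.898, 0.965 and 3.71. Of stem cell genes, Ly6a, for Sca-1, was at 17.96, 12.5 and 14.9, while Procr, Slamf1 and Prom1 were not detected.

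Markers of other cell types that a spleen could hold were read at different levels. Their counts of detected genes stand beside 48.1% of all protein-coding genes. Detected were 2 of 15 T and NK cell genes (Lck and Cd247), 1 of 12 B and plasma cell genes (Igkc, at 28.7, 14.5 and 20.4), 2 of 10 dendritic cell genes (Zbtb46, at 84.4, 130.2 and 91.9, and Bst2, at 1573, 1603 and 1946), 4 of 9 megakaryocyte genes, and 0 of 10 each of the neutrophil and the endothelial genes. Bst2 is also an interferon gene that many cell types express. Of macrophage and monocyte genes 5 of 14 were detected. Their levels were low, such as 36.8, 24.1 and 30.6 for Cd68, and 4 of the 5 were lowest in oil 2 and highest in oil 1 (14.7% of all detected genes had this order). Vcam1, an adhesion gene of splenic macrophages and 1 of the 4, gave 55.7, 13.5 and 26.00. C1qb, for a complement chain of macrophages, was not detected, with 29.6, 5.79 and 13.00.

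All 11 red cell genes examined were detected, against 48.1% of all protein-coding genes, with a median of 372.5 TPM. Hbb-bs was at 17441, 22114 and 15684 and Hbb-bt, the other adult beta globin gene, at 2486, 2727 and 2173. Ank1, for the membrane skeleton protein ankyrin, was at 7598, 8362 and 7384 and Alas2, the first enzyme of heme synthesis in red cells, at 490.4, 738 and 435. Slc4a1, for the anion exchanger band 3, was at 412, 485 and 242, and with 10.9 ± 3.69 TPM it was the lowest of the 11. Of the 11 genes, 7 were highest in oil 2 and lowest in oil 3 (14.7% of all detected genes), among them Hba-a1, Alas2 and Slc4a1. The globin genes took 0.198%, 0.269% and 0.174% of the reads. In bulk libraries fewer cells of a type and less RNA per cell cannot be told apart, and the part of red cells or their precursors in these values was not tested. The cells were sorted as Lin- c-Kit+, and whether red cells remained after the sort was not tested. Hba-a1 and Hba-a2 share 63.3% and 79.5% of their words of 100 bases, so reads may be split between them.

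The 3 mice gave closely similar profiles. Pearson's r of log2(value + 1) across the detected genes was 0.993 for oil 1 with oil 2, 0.993 for oil 1 with oil 3 and 0.994 for oil 2 with oil 3, with genes not being independent replicates. The coefficient of biological variation that edgeR estimated was 9.05% over all detected genes. Its median by gene was 17.0% at means of 10 to 30 and 9.59% at means of 100 to 1000, so low genes were the less certain ones. The median gene had a standard deviation of 0.11 on the log2 scale.

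Between the highest and lowest mouse, 306 of 11593 detected genes (2.64%) differed by 2-fold or more on the log2(value + 1) scale, 35 by 3-fold and 8 by 4-fold. Their median mean value was 34.5, against 746.1 for all detected genes, and 56 of them had a mean of 100 or more. In 99 of them oil 1 stood apart as the highest, in 57 oil 3 as the lowest and in 50 oil 2 as the lowest. A further 38 had oil 2 apart as the highest, 34 oil 1 as the lowest and 28 oil 3 as the highest.

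**Figure D4:**
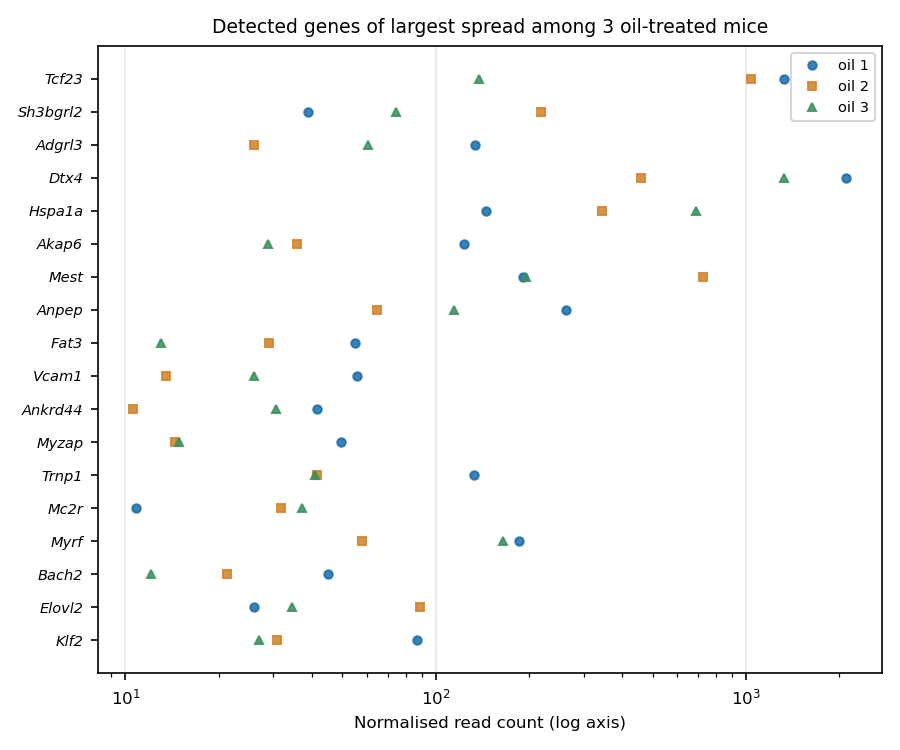
Detected genes among the 20 with the largest spread among the mice, ordered by that spread, with genes not reported here left out. The horizontal axis is the normalised read count on a log scale and the 3 symbols are oil 1, oil 2 and oil 3. Tcf23 runs from 138 in oil 3 to 1325 in oil 1, and Dtx4 has its lowest value, 459.2, in oil 2.

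Tcf23, a helix-loop-helix factor gene at chr5:30968662.0-30977018.0, had the largest spread of the detected genes reported here, with 1325, 1039 and 138 in the 3 mice (3.25 between the extremes on the log2 scale). Oil 3 was the low mouse. Cpt1a, which brings long fatty acids into mitochondria, had the same order of mice, with 6616, 5842 and 2617 (1.34), and it was chosen here after its values were seen. Without oil 3, the range of Tcf23 was 0.35.

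In oil 2 several of the 20 stood apart. Dtx4, an E3 ubiquitin ligase, was low there, at 2107, 459 and 1328. Myrf, a membrane-bound transcription factor, was also low, at 186, 57.9 and 165, and so were Adgrl3, at 134, 26.05 and 60.4, and Ankrd44, at 41.3, 10.6 and 30.6. High in oil 2 were Mest, an imprinted gene, at 191, 725 and 196, Sh3bgrl2, at 38.6, 219 and 74.3, and Elovl2, an enzyme that lengthens polyunsaturated fatty acids, at 26.05, 88.8 and 34.4.

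Oil 1 was the high mouse in Akap6, Anpep, Vcam1, Myzap, Trnp1, Bach2 and Klf2. Anpep, for the surface peptidase CD13, was at 262, 64.6 and 114. Klf2, a flow and quiescence factor, was at 87.1, 30.9 and 26.9. Most of these were low genes: Akap6 and Myzap had means of 62.5 and 26.2. Hspa1a and Mc2r, for the corticotropin receptor, were lowest in oil 1, and Fat3, a large cadherin, was lowest in oil 3, at 54.8, 28.9 and 13.00.

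Further genes past 2-fold were chosen after their values were seen. Cyp11a1, which makes pregnenolone from cholesterol, was at 9889.6, 3720.2 and 5612 (1.41), and Vim, for the intermediate filament vimentin, at 10195, 4989 and 5932 (1.03). In both, oil 1 was the high mouse, as in S100a6 at 1071, 487 and 651. Slc7a8, an amino acid transporter, was at 3915, 2483 and 1691, and Mthfd2, a mitochondrial folate enzyme, at 1024, 1387 and 2254. The last was highest in oil 3. Under 10 in 1 mouse with a mean of 50 or more, and so outside the detected set, were Serpina3g at 109, 6.75 and 38.1 and Anxa2 at 122, 9.65 and 28.8, both lowest in oil 2.

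Of the 306 genes, 19 were among the genes of the lists described here, including those of the receptors named above. From the granule lists these were Serpinb1a, Nkg7, Tpsab1 and Cma2, that is 4 of the 34 detected, beside 2.64% of all detected genes. Oil 1 was the high mouse in Serpinb1a, Nkg7 and Tpsab1. The others were Hspa1a, Hspa1b, Vcam1, Klf2, Ndrg1, Oas2, Nr4a1 and Rtp4. Ndrg1, which low oxygen induces, was at 138, 55.96 and 50.1 and Nr4a1, an early gene of receptor signals, at 12.6, 12.5 and 27.9.

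Some lists had the same order of mice in most of their genes, by smaller amounts. Of the 20 S phase genes, 18 were lowest in oil 1 and highest in oil 3, an order that 22.1% of all detected genes had. Pcna, the sliding clamp of DNA replication, was at 8278, 9249 and 11364, Mcm5, of the replicative helicase, at 9864, 11285 and 13747 and Uhrf1, which keeps DNA methylation through division, at 3946, 5295 and 6594. The median gene of the list lay 0.21 below the mean of the mice in oil 1 and 0.21 above it in oil 3 on the log2 scale, against -0.01 and 0.01 for all detected genes. The count was 18 as well when reads were scaled to the library total (CPM) and by TMM. Fen1, a flap nuclease and 1 of the 20, was low at 22.5, 21.2 and 24.1, and 84.2% of its exon bases overlap genes on the opposite strand.

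**Figure D5:**
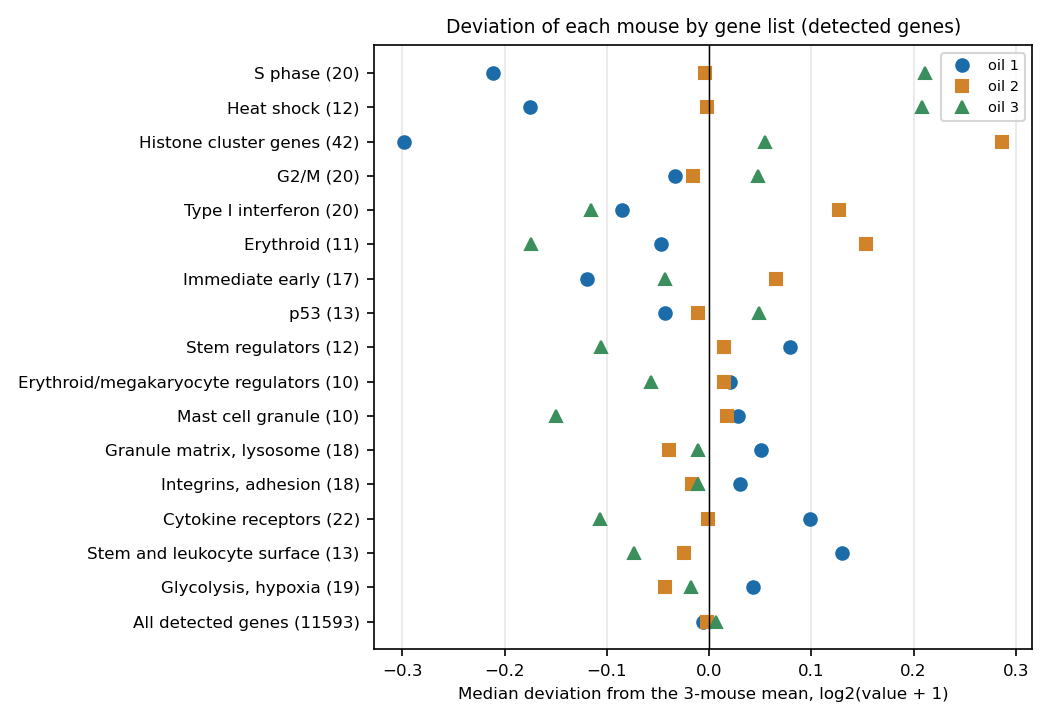
Median deviation of each mouse from the mean of the 3, by gene list. The horizontal axis is the deviation on the log2(value + 1) scale, each row is a list with its number of detected genes, and the symbols are oil 1, oil 2 and oil 3. S phase and heat shock genes lie about 0.2 apart from 0 on both sides, and all detected genes lie close to 0.

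Heat shock genes had the same order as S phase genes in 10 of 12, against 22.1% of all detected genes. Hspa1b and Hspa1a, for the inducible chaperone HSP70, were at 1402, 3052 and 4372 and at 146, 342 and 691. They share 49.9% and 56.5% of their words of 100 bases with other genes, mostly each other, so their reads can be split. Hspa8, the constitutive relative, was at 36963, 49066 and 59636, and Hspa5, the chaperone of the endoplasmic reticulum, at 8871, 11369.8 and 13241. The list was as uniform under CPM and TMM scaling, with 10 of 12 in each, while the 22.1% applies to the deposited scaling alone.

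Histone cluster genes followed another order. Of 42 detected, 28 were lowest in oil 1 and highest in oil 2 (14.9% of all detected genes), and 8 differed by 2-fold or more (2.64% of all detected genes). Hist1h1e, for a linker histone, was at 245, 505 and 465, and Hist1h3e at 124, 286 and 238. Many of these mRNAs lack a poly(A) tail and several have near-identical copies, so their counts are uncertain. G2 and M phase genes were less uniform: 8 of 20 had the order of the S phase genes, beside 22.1% of all detected genes. Under CPM 4 of 20 had it, and the 22.1% applies to the deposited scaling alone. Top2a, for the topoisomerase that untangles chromosomes, was at 13010.1, 14077 and 15547 and Mki67, the Ki-67 gene, at 13538, 18788 and 16829.

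Cytokine receptor genes had oil 1 as the highest and oil 3 as the lowest mouse in 10 of 22, against 18.1% of all detected genes. Besides Il1rl1, Csf2rb and Csf2rb2, Kit and Il10ra had this order, the latter with 365, 227 and 154. Of the 19 glycolysis and hypoxia genes, 9 had it too, such as Pkm, for pyruvate kinase, at 14692, 13671 and 12319.

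Interferon genes were detected in 20 of 26, against 48.1% of all protein-coding genes, with a median of 12.5 TPM among those detected. Of the 20, 14 were highest in oil 2 (29.6% of all detected genes). Oas2, a sensor of double-stranded RNA, was at 158, 404 and 220.1 and Rtp4 at 61.1, 142 and 75.2, and these were the interferon genes past 2-fold. Irf7, the amplifier of the interferon response, was at 255, 350.2 and 245, and Isg15, the protein that USP18 removes, was even at 214, 219 and 231. Ifit3, Mx1, Mx2 and Rsad2 were not detected, and Ifit3b and Ifi44 were at 0 in all 3 mice.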

How the data were processed

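GFP+ Lin- c-Kit+ splenocyte RNA was sequenced by the authors, 1 library per mouse, as paired-end reads. The labels name a tagmentation kit for DNA. The submitters' processing notes name mm10, STAR and DESeq2, while strand setting and annotation are not given in the sources used here. The deposited values were a normalised signal: the authors divided read counts by 1 size factor per library. Within a tolerance of 0.001, 100% of values above 0 were whole multiples of the value of 1 read, so whole reads were recovered. The 1832 unnamed rows (0.0579% to 0.0614% of reads) were left out, 1402 names were rejoined from 2 columns, and 27 names had been turned into dates by a spreadsheet. Of the named rows, 52048 matched GENCODE vM21 (GRCm38), which gave lengths, types and coordinates. Libraries of tamoxifen-treated mice were not used here, and some genes that the lists count are not reported here by name.

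With 1 group there was no comparison between groups and no test. The spread among mice was estimated with edgeR 4.0.16 (R 4.3.3) on recovered reads with an intercept alone, and with DESeq2 1.42.0 as an alternative. Summaries used Python 3.11.15. Named genes were the 5 markers, the lineage antigens, the highest 20 by TPM and 5 of other types, up to 8 members per list and those near 0 that describe it, the 20 largest spreads, list members past 2-fold, up to 10 genes under 10 in 1 mouse, and Usp18. The 35 lists of 477 genes and the members were chosen with earlier results of these data known. Alternatives were other detection limits, pseudocounts, folds, scalings and each mouse left out, and longest-transcript length, the set without translation genes and list orders under other scalings were added after the data were seen.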

Additional observations from a re-analysis of the deposited data

How the results depend on the processing

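No paired analysis was possible because only 1 group was used and no test was run. Over the alternatives, between 10753 and 12444 genes were detected, and the counts of detected regulators, receptors and granule genes stayed between 55 and 56, 61 and 72, and 33 and 41. The 100 most abundant genes took 36.6% when counted as TPM in place of reads. The 306 genes that differed among mice became 1315 at 1.5-fold, 35 at 3-fold, 203 with a pseudocount of 5, 588 with a mean of 10 over the mice in place of 10 in each, 3610 with a mean of 1, and 56 with a mean of 100. Leaving out a mouse gave 96 (without oil 1), 145 (without oil 2) or 155 (without oil 3), since a range over 2 mice cannot exceed that over 3. The biological variation was 9.03% with TMM factors, 9.24% without the filter, 8.14% to 10.3% with a mouse left out and 5.36% as DESeq2's median by gene, which is another summary. Of the 20 genes with the largest spread, 17 were in the 20 of largest dispersion by edgeR and all 20 in its first 100. By edgeR, the median variation by gene was 17.0% at means of 10 to 30 and 16.2% at means of 30 to 100. With 3 mice, differences among single mice have no replicate.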

Other observations

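The following counts of detected genes stand beside 48.1% of all protein-coding genes. Of 18 p53 genes 13 were detected (72.2%), with Trp53 itself at 7276, 7984 and 8019 and Phlda3, a target that holds back AKT, at 2313, 2469.8 and 2400.3. Cdkn1a, for the cell cycle inhibitor p21, was at 603, 487 and 614, or 22.5 ± 2.76 TPM beside 269 ± 10.5 for Trp53, and Plk2 was at 0 in all 3 mice. Of 20 immediate early genes 17 were detected, led by Myc with 459 ± 30.2 TPM from values of 9195, 8221 and 9187. Junb and Fosb were both highest in oil 2, at 1927, 2946 and 2312 and at 702, 1245 and 853. Of 9 genes of antigen presentation on MHC class II 5 were detected (55.6%), and Ciita, the factor that switches the class on, was at 0, 0 and 0.929. H2-Oa had the highest TPM of them with 21.7 ± 0.640, from values of 219, 210.3 and 222.

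The following genes are in no list and were chosen after their values were seen. Tac2, for the peptide neurokinin B, was at 6300.2, 8757 and 7631 (rank 156), Ces2g, a carboxylesterase, at 14628, 13828 and 15062 (rank 199), and C1qtnf12, for a secreted relative of complement C1q, at 9457, 9861 and 10705 (rank 116). Ly6d was at 5552, 4777 and 6153 (rank 114). Trbv13-2, a variable segment of the T cell receptor beta chain, was read at 608, 527 and 451, while the constant segments Trbc1 and Trbc2 were at 0 to 1 reads. Among all T cell receptor rows, 9 variable segments and 1 constant segment were detected. The constant segment was Tcrg-C1, at 45.8, 12.5 and 27.9. Gcm2, a factor known from the parathyroid gland, was at 157, 289 and 134, highest in oil 2. Xist was at 8681, 11973 and 10478, and rows of chromosome Y took 0.00336% ± 0.000312 of the reads.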
